A study of Mus musculus with 12 samples.

Results

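Both Fra proteins belong to AP-1, and the comparison made here asks what the liver does in common when either of them is switched on: all 6 transgene-expressing mutants were set against all 6 littermate controls, with the strain as an additive term in the fit. It uses all 12 libraries of the series. Of the 14076 genes tested, 571 changed alike in both strains, 404 of them higher in the mutants and 167 lower. A gene counts as alike if it passed the test over both strains (adjusted p under 0.05), if in each strain its 3 mutants lay on the same side of its 3 controls, and if its effect did not differ between strains by the test of that difference. The set is a description of these libraries and has no test of its own.

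AP-1 is a dimeric transcription factor in which a Fos-type protein pairs with a Jun-type protein and binds the motif TGAGTCA or TGACTCA. Fra-1 (gene Fosl1) and Fra-2 (gene Fosl2) are the Fos-type members that lack a strong transactivation domain of their own, and they act through their partners and through the genes that their dimers occupy. In the liver, AP-1 members are known for their part in regeneration, in lipid handling and in tumour formation.

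The mice were adult C57BL/6 males. In the Fra1hep strain (Fra1 below) the induced transgene encodes Fra-1, and in the Fra2hep strain (Fra2 below) Fra-2. Doxycycline kept the transgene off, and it was withdrawn at weaning, at 3 weeks of age, from mutants and controls alike. Each strain gave 3 mutants and 3 littermate controls from shared cages, and the titles give 2 months. For the 3 Fra2 mutants the label on treatment gives 9 months, and for all other animals 2 months, so if that label holds, age and genotype cannot be told apart within Fra2. The labels used here do not name the promoter that drives the transgene.

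Library totals ran from 16834041 to 20464807 counts. The 8 defining hepatocyte markers (Alb and 7 others) were all present, with a summed level between 62800 and 134000 CPM (read counts scaled to library size) in every library: 92000 to 129000 in Fra1 controls, 62800 to 118000 in Fra1 mutants, 109000 to 134000 in Fra2 controls and 66800 to 82100 in Fra2 mutants. Among the markers of other cells, those of recruited and lipid-associated macrophages summed to 227 to 339 CPM in Fra1 controls and 388 to 580 in Fra1 mutants, and to 217 to 459 in Fra2 controls and 498 to 532 in Fra2 mutants. In each strain the mutants lay above the controls, and 1 of the 13 tested macrophage markers passed the test over both strains. The stellate cell and fibroblast markers summed to 405 to 525 CPM in Fra1 controls against 653 to 797 in Fra1 mutants, and to 481 to 671 in Fra2 controls against 382 to 583 in Fra2 mutants. Whether these cell-type levels play a part in the shared changes was not tested, and in whole liver a change in the number of cells of a type cannot be told apart from a change of RNA per cell.

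Fosl1 and Fosl2, the genes of the induced proteins, did not meet the criteria for a shared change. Whether their counts hold reads of the transgene, of the endogenous gene or of both was not tested. Fosl1 stood at 9.41, 10.2 and 12.8 CPM in Fra1 mutants, at 0.292, 0.109 and 0.0519 in Fra2 mutants, at 0, 0 and 0.0538 in Fra1 controls and at 0.607, 0.0558 and 0.054 in Fra2 controls. Fosl2 stood at 398, 421 and 421 CPM in Fra2 mutants, at 7.49, 11.4 and 10.0 in Fra1 mutants, at 8.69, 8.65 and 10.1 in Fra1 controls and at 12.2, 48.1 and 16.0 in Fra2 controls. Each gene was thus high only in the mutants named for it, with a raised value of Fosl2 in Fra2 control 2 and of Fosl1 in Fra2 control 1. Over both strains neither passed the edgeR test (adjusted p = 0.0995 for Fosl1 and 0.141 for Fosl2), while Fosl2 passed by DESeq2 (adjusted p = 0.0266) and by limma-voom (adjusted p = 0.0188).

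The AP-1 motif stood in the 250 bases before the start of 22 of the 317 alike higher genes that had a RefSeq promoter sequence (6.94%), and in 14 of the 151 whose rise was at least 1 on the log2 scale (9.27%). It stood in 5 of 132 alike lower genes (3.79%) and in 1 of the 46 whose fall was at least 1 (2.17%). The share was 452 of 10660 genes tested (4.24%) and 1395 of all 27025 promoters (5.16%). The letters searched were TGAGTCA and TGACTCA, which are each other's reverse complement, so a search of one strand covers both. These shares were not tested, and a match is not a bound site. The sequences that follow show where the motif lies in the shared rises with the largest fold that hold it outside annotated exons (Ypel4, Cidec, Entpd2), in Srxn1, whose rise has one of the smallest p-values of all genes and which holds the motif more than once, and in the largest shared fall that holds it (Lcn12). The capitals mark the motif, and each run is written 5′ to 3′ on the strand of its gene, with exonic bases left out.
Ypel4: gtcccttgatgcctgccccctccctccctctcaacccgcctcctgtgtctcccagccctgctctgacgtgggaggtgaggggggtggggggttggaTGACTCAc
Cidec: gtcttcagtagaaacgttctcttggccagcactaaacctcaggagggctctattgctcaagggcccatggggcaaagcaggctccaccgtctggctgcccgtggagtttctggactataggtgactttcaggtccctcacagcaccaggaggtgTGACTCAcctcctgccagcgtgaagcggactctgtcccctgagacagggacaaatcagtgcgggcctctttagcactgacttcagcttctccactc
Entpd2: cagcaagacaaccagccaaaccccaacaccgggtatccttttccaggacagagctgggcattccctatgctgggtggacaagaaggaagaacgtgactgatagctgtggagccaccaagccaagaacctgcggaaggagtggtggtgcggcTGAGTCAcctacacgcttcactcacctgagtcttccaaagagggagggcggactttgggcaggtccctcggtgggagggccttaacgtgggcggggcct
Srxn1: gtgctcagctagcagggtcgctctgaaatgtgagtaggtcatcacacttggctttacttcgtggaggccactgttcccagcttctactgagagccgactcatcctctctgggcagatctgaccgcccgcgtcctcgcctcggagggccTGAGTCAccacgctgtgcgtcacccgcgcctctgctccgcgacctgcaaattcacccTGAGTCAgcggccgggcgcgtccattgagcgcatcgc
Lcn12: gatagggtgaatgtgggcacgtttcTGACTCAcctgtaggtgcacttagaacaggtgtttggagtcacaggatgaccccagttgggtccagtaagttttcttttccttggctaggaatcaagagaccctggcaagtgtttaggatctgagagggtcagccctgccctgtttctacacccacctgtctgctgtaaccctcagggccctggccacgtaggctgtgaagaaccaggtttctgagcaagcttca
In GRCm38 these runs lie at chr2:84733954-84734057 (plus strand, Ypel4), chr6:113434765-113435014 (minus strand, Cidec), chr2:25395624-25395873 (plus strand, Entpd2), chr2:152105274-152105515 (plus strand, Srxn1) and chr2:25493912-25494161 (minus strand, Lcn12). The motif began 154 bases before the RefSeq start in Ypel4, 96 in Cidec, 99 in Entpd2, 102 and 45 in Srxn1, and 225 in Lcn12. In GENCODE the gene starts earlier in Ypel4 (84734058) and Srxn1 (152105516), right after the last base shown, so the motif lies closer to that start. The Cidec run lies inside the longest annotated extent of the gene (113424634 to 113435760), before the start of its RefSeq transcript. In Entpd2 it overlaps a match to the antioxidant response core (TGACNNNGC, searched on both strands). Srxn1 encodes sulfiredoxin, which restores oxidised peroxiredoxins, Entpd2 an ATP-cleaving enzyme of the cell surface, and Cidec a lipid droplet fusion protein.

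Over both strains 792 genes passed the test, 5.63% of those tested, with 551 higher (3.91%) and 241 lower (1.71%). None of them had strain effects of opposite sign, which the choice of genes by a test over both strains largely fixes. Of all 14076 genes tested, 8823 had effects of the same sign in both strains. The 404 alike higher genes (2.87% of those tested) included 388 protein-coding genes and 8 long non-coding RNAs, and the 167 alike lower genes (1.19%) included 146 and 18. The other 221 genes that passed were not alike, 218 because mutants and controls overlapped in at least 1 strain and 4 because the effects differed, with 1 gene in both counts. Without Fra1 control 1 the genes lower over both strains numbered 135, without Fra1 control 2 also 135, and without Fra1 mutant 3 158. Without Fra2 control 1 the alike lower genes numbered 256.

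**Figure D1:**
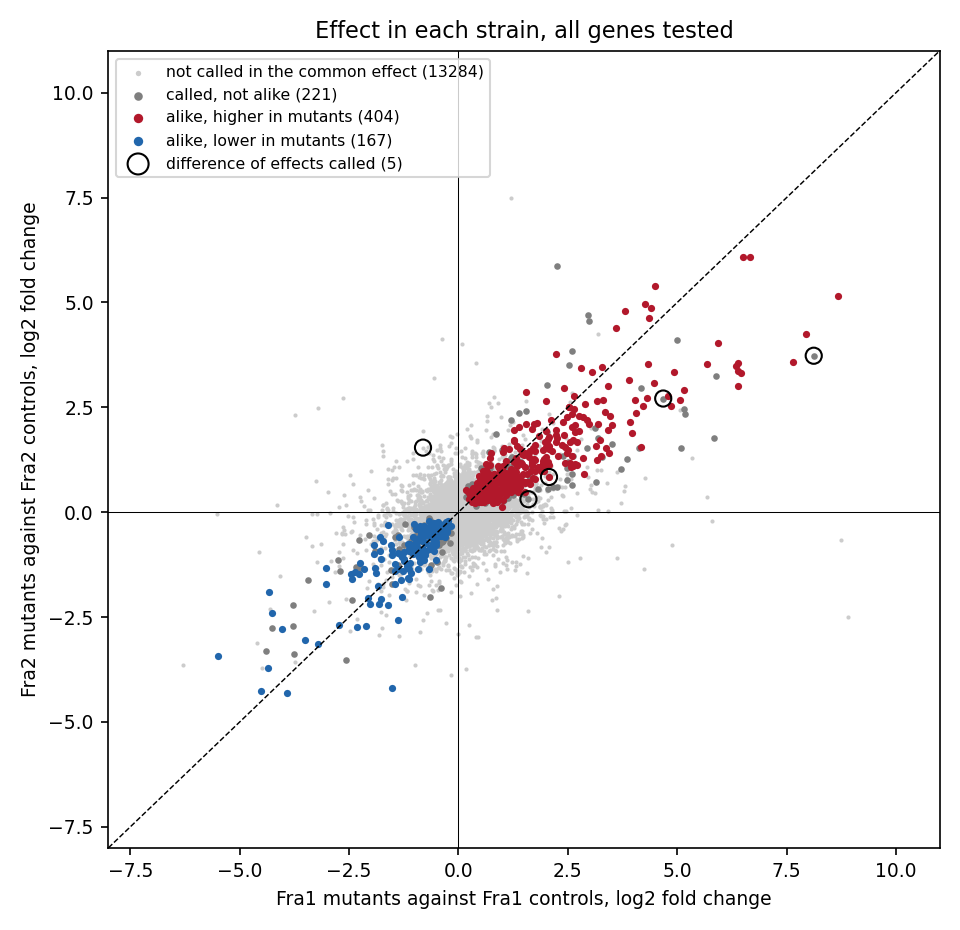
Effect of the transgene in Fra1 (x axis, log2 fold change of mutants against controls) and in Fra2 (y axis, same unit) for the 14076 genes tested, 1 point per gene; the dashed line marks equal effects. The 404 red and 167 blue points are the genes that changed alike, grey points that passed over both strains but were not alike number 221, and 5 circles mark genes whose effects differed between strains.

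The level of the alike genes separated the animals without overlap. Within each strain the choice of members fixes this outcome, and across strains it does so in part. The median alike higher gene lay 1.05 to 1.09 log2 units above the mean of the Fra1 controls in the Fra1 mutants and 0.87 to 1.01 above it in the Fra2 mutants, while the controls lay between -0.06 and 0.17. The median alike lower gene lay between -0.91 and -0.78 in Fra1 mutants, between -0.72 and -0.66 in Fra2 mutants and between -0.14 and 0.08 in controls. For all genes tested the median stayed between -0.01 and 0.02 in every library. Of the alike genes, 315 higher and 112 lower had all 6 mutants on one side of all 6 controls, a pattern that 506 of all genes tested showed (3.59%). Separation of the 3 mutants from the 3 controls in both strains, in the same direction, was seen in 781 of all genes tested (5.55%). In the controls the alike higher genes had a median level of 13.6 CPM and the alike lower genes 31.5, against 13.5 for all genes tested.

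**Figure D2:**
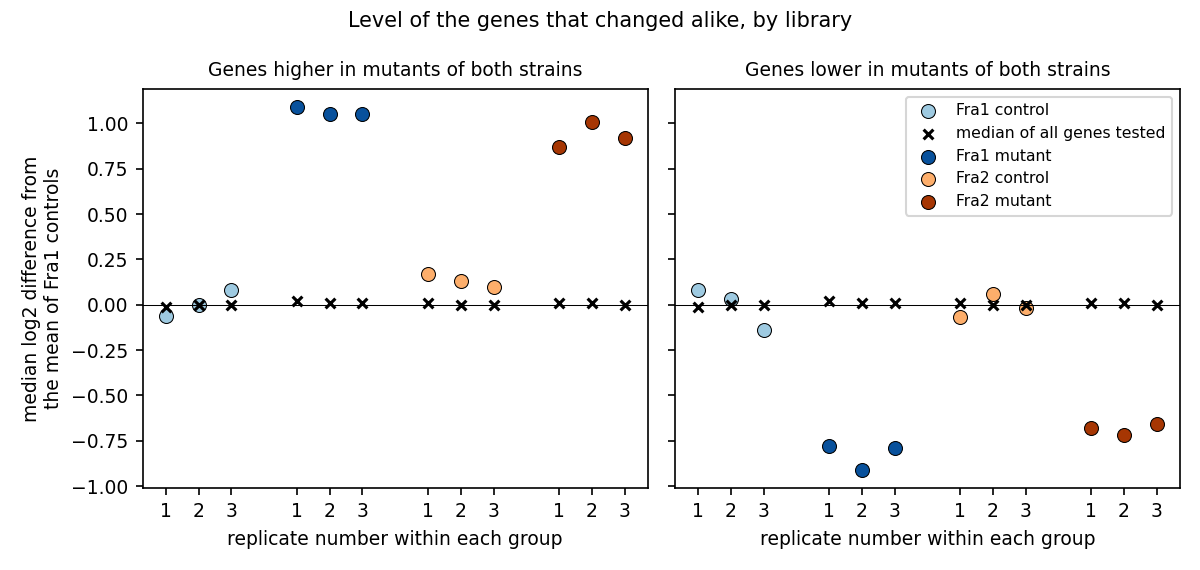
Median log2 difference from the mean of the 3 Fra1 controls (y axis) over the alike higher genes (left) and the alike lower genes (right) in each library (x axis, replicate number within group), with crosses for all genes tested. Mutants of both strains lie above 0.8 on the left and below -0.6 on the right, while controls stay between -0.14 and 0.17.

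The median rise of the alike higher genes was 0.95 on the log2 scale over both strains, 1.12 in Fra1 and 0.84 in Fra2, and 306 of the 404 rose more in Fra1. The median fall of the alike lower genes was -0.84, with -0.85 in Fra1 and -0.77 in Fra2, and 103 of 167 fell more in Fra1. For 87 of the 571 genes, 77 of them higher, the 95% interval of the difference between strains left out 0 without an adjustment for the number of genes. In 75 of the 77 the rise was the larger one in Fra1. The difference itself passed the adjusted test for 5 genes of all (0.0355%), with 889 at an unadjusted p under 0.05, by edgeR, for 69 by DESeq2 and for 4 by limma-voom. Absence from the adjusted calls therefore does not show that an effect was equal in both strains.

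Those 5 genes are Smpdl3b, a lipid-modifying phosphodiesterase of the cell surface, Gas7 and Tpm1, which act on the actin cytoskeleton, Dop1b, a protein of endosome-to-Golgi traffic, and Cyp4a12b, a fatty acid hydroxylase. By limma-voom none of these 5 passed (adjusted p 0.05 to 0.287). Smpdl3b, Gas7, Tpm1 and Dop1b rose over both strains, with the larger effect in Fra1 (Dop1b, adjusted p = 0.0658 over both strains without Fra1 control 2). Gas7 stood at 4.38, 5.16 and 5.06 CPM in Fra1 controls, 117, 117 and 143 in Fra1 mutants, 11.4, 16.3 and 9.66 in Fra2 controls and 76.9, 80.4 and 86.8 in Fra2 mutants. Its mutants lay far above the controls in both strains, with a log2 fold change of 4.68 ± 0.20 (SE) in Fra1 and 2.71 ± 0.18 in Fra2. Smpdl3b rose by 8.12 ± 0.41 and 3.73 ± 0.30, Tpm1 by 2.07 ± 0.12 and 0.84 ± 0.12, and Dop1b by 1.60 ± 0.13 in Fra1, with 0.31 ± 0.13 in Fra2 (adjusted p = 0.375). The Smpdl3b controls were near 0, with 2, 2 and 3 counts in Fra1 and 25, 24 and 16 in Fra2. Its mean was 37.9 CPM in Fra1 mutants and 15.9 in Fra2 mutants. On the log2 scale, Fra2 minus Fra1 was 3.14 between controls and -1.25 between mutants, so much of the difference of effects lies in the controls. Cyp4a12b did not pass over both strains (0.37 ± 0.40, adjusted p = 0.674), with -0.81 ± 0.21 in Fra1 (adjusted p = 0.0643) and 1.54 ± 0.22 in Fra2. The number of such genes ran from 0 to 13 when single libraries were left out: 0 without any of the 3 Fra1 controls, Fra1 mutant 1, Fra1 mutant 3, Fra2 control 1, Fra2 mutant 1 or Fra2 mutant 3, 1 without Fra2 mutant 2, 3 without Fra1 mutant 2 and 13 without Fra2 control 3.

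The shared rises with the smallest p-values included genes that were well transcribed in the control liver. They are listed here after their values were seen. Tiam2, an exchange factor for the GTPase Rac, stood at 8.36, 10.2 and 13.3 CPM in Fra1 controls, 44.8, 43.1 and 51.1 in Fra1 mutants, 9.11, 14.5 and 10.8 in Fra2 controls and 51.9, 56.2 and 49.2 in Fra2 mutants. Every mutant was at least 43.1 CPM and every control at most 14.5, and the log2 rise was 2.16 ± 0.13 over both strains (adjusted p = 7.92e-06), 2.12 ± 0.19 in Fra1 and 2.19 ± 0.19 in Fra2. The difference of 0.07 had a 95% interval from -0.51 to 0.65. Srxn1 stood at 30.2, 33.3 and 38.4 CPM in Fra1 controls, 154, 125 and 142 in Fra1 mutants, 33.4, 49.1 and 35.8 in Fra2 controls and 118, 151 and 128 in Fra2 mutants. Its rise was 1.90 ± 0.12 (adjusted p = 7.92e-06), again with no overlap between the 6 mutants and the 6 controls. Arl6ip5, an endoplasmic reticulum membrane protein, rose by 1.68 ± 0.11 from 26.8 CPM ± 3.03 to 85.9 ± 11.9 (SD, n = 6 and 6), and Tgfbr2, the type II receptor for TGF-beta, by 2.29 ± 0.17 from 24.6 ± 5.71 to 118 ± 22.5. For Tgfbr2 the rise was 2.66 ± 0.19 in Fra1 and 1.92 ± 0.18 in Fra2, with an unadjusted 95% interval of the difference from -1.28 to -0.19, and the difference did not pass (adjusted p = 0.615).

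Entpd2, shown above with its motif, rose by 2.54 ± 0.20 from 3.28 CPM ± 0.797 to 19.3 ± 4.35 (SD, n = 6 and 6). Its annotated extent overlaps that of Npdc1 on the same strand, so reads of the shared stretch cannot be told apart by strand. Mcm2, a subunit of the replicative helicase, rose by 2.03 ± 0.16, from 2.29, 2.21 and 2.37 CPM to 11.5, 12.2 and 8.28 in Fra1 and from 3.92, 3.07 and 2.27 to 9.64, 12.2 and 11.6 in Fra2. It was the only one of 36 tested cell cycle and replication licensing genes that passed (median log2 fold change of the list 0.25, against 0.00 for all genes tested). Cttn, the actin-binding protein cortactin, rose by 1.11 ± 0.09, Arhgap22, a GTPase-activating protein, by 4.51 ± 0.37, and Meiob, known from meiotic recombination, by 1.61 ± 0.13. In all 5 of these genes the 6 mutants lay above the 6 controls.

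The largest shared rises were of genes that the control liver hardly transcribed. Meltf, which encodes an iron-binding protein anchored in the membrane, had 2 counts in the 6 controls together and 248 in the 6 mutants, a ratio of 121 per unit of library size (95% counting interval 33.1 to 1000). In Fra1 mutants it reached 4.49, 4.21 and 3.10 CPM, and in Fra2 mutants 0.0584, 0.927 and 0.363, with 0 in every Fra2 control. Fra2 mutant 1 was thus close to the controls. Cdhr2, a protocadherin of brush border microvilli, stood at 0.0653, 0.0491 and 0.0538 CPM in Fra1 controls, 3.28, 30.6 and 11.9 in Fra1 mutants, 0.166, 0.167 and 0.108 in Fra2 controls and 3.8, 2.51 and 2.49 in Fra2 mutants. Its log2 rise was 6.14 ± 0.75 over both strains, with 7.94 ± 0.93 in Fra1 and 4.26 ± 0.83 in Fra2. Its mutants lay above all controls, and the Fra1 mutants alone ran from 3.28 to 30.6 CPM.

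Lrtm2, a neuronal membrane protein, and Cacna2d4, an auxiliary calcium channel subunit, lie on opposite strands of the same stretch of chromosome 6 (GRCm38 119315133 to 119330766 and 119236526 to 119352407), so their reads cannot be told apart unless strand was used in counting. Lrtm2 stood at 0.0653, 0.0491 and 0.0538 CPM in Fra1 controls and 15.4, 42.7 and 18.1 in Fra1 mutants. In Fra2 it stood at 0.331, 1.51 and 0.162 CPM in controls and 24.3, 25.3 and 22 in mutants. Its rise over both strains was 6.15 ± 0.60. Cacna2d4 had 3 counts in the controls and 305 in the mutants, a ratio of 99.0 (95% counting interval 33.6 to 483), but Fra1 mutant 1 held 1 count, as many as Fra1 control 2, so its separation in Fra1 rests on library size alone.

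Inava, an adaptor of epithelial junctions, rose by 5.71 ± 0.78, with 42.9 CPM in Fra1 mutant 2 against 8.48 and 7.77 in the other Fra1 mutants, 2.44 to 2.95 in Fra2 mutants and at most 0.279 in the controls. Syt14, a synaptotagmin, rose by 5.16 ± 0.39 (adjusted p = 2.62e-05) from 0.0754 CPM ± 0.0348 to 3.14 ± 2.31 (SD, n = 6 and 6). Hkdc1, a hexokinase-related enzyme, stood at 13.6, 29.9 and 15.7 CPM in Fra1 mutants and 3.68, 5.84 and 3.22 in Fra2 mutants, against at most 0.552 in any control. Its rise was 6.45 ± 0.48 in Fra1 and 3.31 ± 0.44 in Fra2, and the unadjusted 95% interval of the difference ran from -4.64 to -1.65 (adjusted p = 0.312). Plet1, a surface protein of epithelial progenitors, stood apart from its controls too, with 136, 117 and 191 CPM in Fra1 mutants, 36.6, 64.6 and 47.8 in Fra2 mutants and 1.35 to 7.57 in the controls. Its difference between strains was -2.86 (unadjusted 95% interval -4.26 to -1.45, adjusted p = 0.324).

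Atp6v0d2, which encodes part of the proton pump of vacuoles and lysosomes, stood at 170, 107 and 23.8 CPM in Fra1 mutants, 19.4, 80.7 and 18.3 in Fra2 mutants and at most 4.03 in the controls (log2 rise 4.82 ± 0.77). Cyp21a1, the adrenal steroid 21-hydroxylase, stood at 5.58, 5.74 and 10.2 CPM in Fra1 mutants and 16.1, 4.42 and 2.44 in Fra2 mutants, against at most 0.592 in the controls (4.61 ± 0.58); it overlaps Tnxa on the other strand. Ypel4, a small nuclear protein, stood at 2.30, 5.53 and 4.11 CPM in Fra1 mutants and 0.759, 8.13 and 1.19 in Fra2 mutants (4.86 ± 0.74). In these 3 genes mutants of the same strain differed by up to several-fold, yet every mutant lay above every control. Tmeff2, a membrane protein with a follistatin-like domain, rose by 4.70 ± 0.89, but Fra1 mutants 1 and 3, at 0.164 and 0.203 CPM, lay close to Fra2 control 2 at 0.167.

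**Figure D3:**
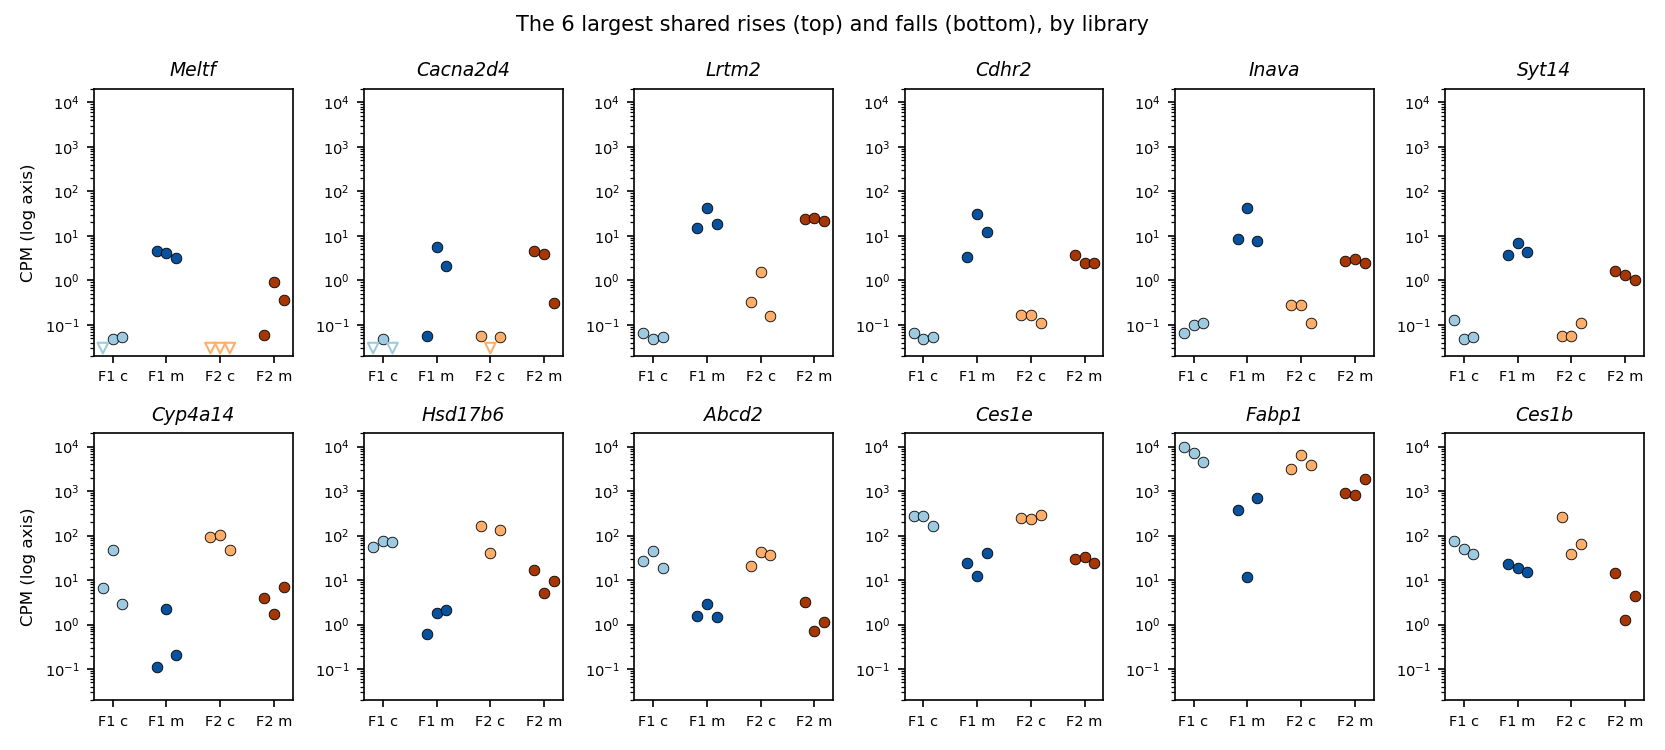
Level in CPM on a log axis of the 6 largest shared rises (top row) and the 6 largest shared falls (bottom row) in each library, grouped on the x axis as Fra1 controls (F1 c), Fra1 mutants (F1 m), Fra2 controls (F2 c) and Fra2 mutants (F2 m); open triangles mark libraries with 0 counts. Mutants and controls lie apart within each strain, with the smallest gap in Cacna2d4, where Fra1 mutant 1 held 1 count.

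The largest shared falls are given next. Hsd17b6, a steroid dehydrogenase of the male liver, stood at 56.2, 75.8 and 73.0 CPM in Fra1 controls, 0.602, 1.79 and 2.08 in Fra1 mutants, 165, 41.0 and 132 in Fra2 controls and 17.2, 5.13 and 9.45 in Fra2 mutants. Every mutant lay below every control, with a log2 change of -4.31 ± 0.53 over both strains, -5.50 ± 0.66 in Fra1 and -3.42 ± 0.57 in Fra2. Abcd2, a peroxisomal transporter of very long chain fatty acids, stood at 27.4, 44.2 and 18.6 CPM in Fra1 controls, 1.53, 2.95 and 1.47 in Fra1 mutants, 20.4, 42.2 and 36.2 in Fra2 controls and 3.21, 0.709 and 1.14 in Fra2 mutants. Its change was -4.10 ± 0.37 (adjusted p = 9.10e-05), and the strains differed by -0.38 (95% interval -1.99 to 1.23). Ces1e, a liver carboxylesterase, stood at 276, 277 and 167 CPM in Fra1 controls, 24.8, 12.2 and 40.0 in Fra1 mutants, 247, 238 and 284 in Fra2 controls and 29.8, 32.5 and 24.7 in Fra2 mutants. It fell by 3.18 ± 0.25 on the log2 scale, by nearly the same amount in Fra1 (-3.22 ± 0.37) and Fra2 (-3.14 ± 0.37), with a difference of 0.08 (-0.97 to 1.13).

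Cyp4a14, a fatty acid omega-hydroxylase, was the largest fall over both strains (-4.36 ± 0.76, adjusted p = 0.00548) and passed in neither strain alone. It stood at 6.60, 48.4 and 2.91 CPM in Fra1 controls, 0.109, 2.21 and 0.203 in Fra1 mutants, 91.8, 101 and 47.5 in Fra2 controls and 3.86, 1.69 and 6.91 in Fra2 mutants, so mutants of Fra2 overlapped controls of Fra1 but not their own. Cyp2c38, a drug-metabolising enzyme, fell by 2.72 ± 0.47 on the log2 scale with the same overlap across strains. Serpina6, the corticosteroid-binding globulin of plasma, fell by 2.54 ± 0.46, from 231 to 358 CPM down to 17.6 to 125 in Fra1 and from 103 to 453 down to 31.2 to 46.0 in Fra2. Pbld2 fell by 2.41 ± 0.31, from 191 CPM ± 20 to 36.3 ± 17.5 (SD, n = 6 and 6). Adcy1, an adenylyl cyclase, and Kcnk10, a potassium channel, fell by 2.02 ± 0.29 and 2.06 ± 0.35 from control means of 1.46 and 2.02 CPM.

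Fabp1, whose protein carries fatty acids inside hepatocytes, stood at 10000, 7160 and 4500 CPM in Fra1 controls, 376, 12 and 686 in Fra1 mutants, 3100, 6480 and 3900 in Fra2 controls and 922, 818 and 1860 in Fra2 mutants. All 6 mutants lay below all 6 controls, but the spread between animals was wide, and the change of -3.12 ± 0.82 passed narrowly (adjusted p = 0.0464; 0.11 without Fra1 mutant 1). Ces1b changed by -2.82 ± 0.72 (adjusted p = 0.0427; 0.0993 without Fra2 mutant 3) and Ugt1a9, a glucuronosyltransferase, by -1.93 ± 0.46 (adjusted p = 0.0299; 0.0764 without Fra2 mutant 2). Counts of the Ces1, Cyp2c, Cyp4a and Gstm genes are uncertain, since near-identical relatives could share reads, and Ugt1a9 shares exons with its neighbours in the Ugt1a locus. The falls with the smallest p-values after Ces1e and Abcd2, named after their values were seen, were of 1.02 to 1.45 log2 units. Fgfr4, the liver receptor for the bile acid signal FGF15, fell from 61.8 CPM ± 5.52 to 30.4 ± 4.84 (-1.02 ± 0.10), Afm, which encodes the plasma protein afamin, from 312 ± 62.3 to 124 ± 22.5 (-1.33 ± 0.14), Apoc4, an apolipoprotein, from 641 ± 127 to 284 ± 35.7 (-1.17 ± 0.14), and Rdh16, a retinol dehydrogenase, from 101 ± 20.9 to 38.3 ± 12.6 (-1.45 ± 0.18; SD, n = 6 and 6). In each of these 4 genes all mutants lay below all controls.

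Setting 6 against 6 brought out genes that 3 against 3 did not. The median standard error of a log2 fold change was 0.16 over both strains against 0.22 in each strain. Of the 792 genes, 114 also passed in both strains taken singly, 287 in Fra1 only, 26 in Fra2 only and 365 in neither; of these 365, 225 were higher and 140 lower, and 145 and 89 of them were alike. The background share of genes passing was 3.84% in Fra1 and 1.07% in Fra2. Conversely, 139 of the 540 genes that passed in Fra1 (96 higher, 43 lower) and 10 of the 150 in Fra2 did not pass over both strains.

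Most of the genes named from this group had effects of 1 log2 unit or less. Cd151, a tetraspanin that binds laminin receptors, stood at 43.9, 38.6 and 49.5 CPM in Fra1 controls, 62.7, 53.7 and 65.4 in Fra1 mutants, 36.2, 37.6 and 39.1 in Fra2 controls and 49.1, 58.7 and 60.1 in Fra2 mutants. The log2 rise was 0.52 ± 0.08 over both strains (adjusted p = 0.00332), against 0.46 ± 0.12 in Fra1 (adjusted p = 0.0644) and 0.57 ± 0.12 in Fra2 (adjusted p = 0.0544). Within each strain the groups did not overlap, although Fra2 mutant 1 lay below Fra1 control 3. Slc13a5, the citrate carrier of hepatocytes, rose by 2.29 ± 0.39, from 1.47 CPM ± 1.02 to 6.68 ± 3.70 (SD, n = 6 and 6). Mtf1, the transcription factor that responds to zinc, rose by 1.00 ± 0.17 to 31.6 CPM ± 5.73 from 15.7 ± 4.21. Kctd9 rose by 0.80 ± 0.14, Spats2 by 0.82 ± 0.14 and Rangap1, which activates the GTPase of nuclear transport, by 0.71 ± 0.13.

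On the lower side, Vegfa, the growth factor of blood vessels, stood at 230, 241 and 209 CPM in Fra1 controls, 180, 172 and 144 in Fra1 mutants, 221, 261 and 197 in Fra2 controls and 161, 150 and 149 in Fra2 mutants. All 6 mutants lay below all 6 controls, and the log2 change was -0.51 ± 0.09 (adjusted p = 0.00509), with adjusted p = 0.0818 in Fra1 and 0.0738 in Fra2. Mtfp1, a mitochondrial fission protein, changed by -0.62 ± 0.10, Shf, an adaptor protein, by -0.71 ± 0.12 and Unc119, a carrier of lipid-modified proteins, by -0.89 ± 0.16. In these 3 genes too, no mutant overlapped a control. Leaving out any single library kept the call for all 12 genes named here, Cyp2c38 and Cyp4a14 included, with a highest adjusted p of 0.0203.

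**Figure D4:**
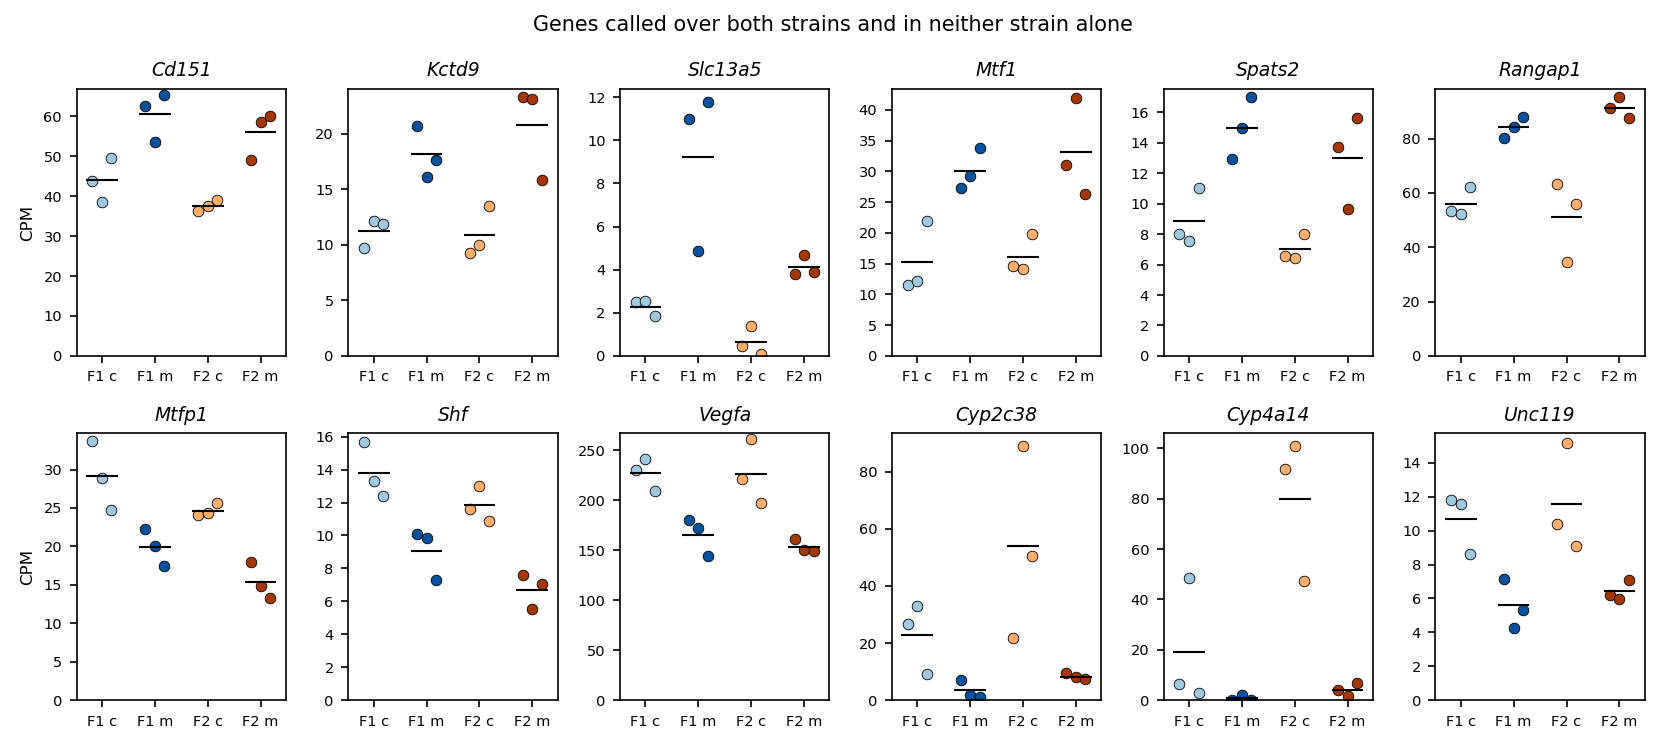
Level in CPM (linear axis from 0) in each library of the 12 genes with the smallest p among those that passed over both strains and in neither strain alone, with horizontal bars for the group means; the groups are Fra1 controls (F1 c), Fra1 mutants (F1 m), Fra2 controls (F2 c) and Fra2 mutants (F2 m). In each panel the mutants lie on the same side of the controls in both strains, as for Vegfa, at 144 to 180 CPM in mutants and 197 to 261 in controls.

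The shared change was also read through 26 gene lists. Their counts stand against the 5.63% of all genes that passed and a median of 0.00, and no list was tested as such. Of 42 cytoskeleton, annexin and S100 genes, 8 rose and none fell (median log2 fold change 0.39; 0.53 in Fra1 and 0.18 in Fra2). S100a10, the partner of annexin A2, stood at 89.2, 49.2 and 71.2 CPM in Fra1 controls, 282, 246 and 355 in Fra1 mutants, 66.6, 128 and 87.2 in Fra2 controls and 257, 268 and 278 in Fra2 mutants, a rise of 1.79 ± 0.20. Its mutants of both strains stood together, and no control overlapped them. Tubb6, a tubulin, rose by 1.80 ± 0.25 and Anxa7 by 0.67 ± 0.11, and both were alike. For Anxa7 the rise was 0.90 ± 0.13 in Fra1 and 0.44 ± 0.13 in Fra2, with an unadjusted 95% interval of the difference from -0.85 to -0.06. The other rises (Tpm1, Tpm4, Anxa2, Anxa5, Tagln2) were not alike. Anxa2, for one, stood at 91.6, 115 and 76.4 CPM in Fra1 mutants over 8.42 to 13.6 in their controls, but at 25.1, 37.8 and 13.8 in Fra2 mutants over 10.7 to 20.8. Without Fra1 control 1, or without Fra1 control 2, 4 members of this list passed.

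Of 31 epithelial junction, brush border and membrane protease genes, 7 rose and none fell (median 0.40; 0.51 in Fra1 and 0.20 in Fra2), and 5 of them were alike. St14 (matriptase) stood at 16.9, 10.5 and 35.0 CPM in Fra1 mutants and 29.5, 20.9 and 16.8 in Fra2 mutants, against 0.261 to 0.590 in Fra1 controls and 0.486 to 3.31 in Fra2 controls. The log2 rise was 4.38 ± 0.54, and the mutants of the strains overlapped each other but not any control. Tmprss2, another membrane serine protease, rose by 2.78 ± 0.29, Cdhr5, the partner of Cdhr2 in microvilli, by 0.77 ± 0.11 and Perp, a desmosome protein, by 0.49 ± 0.10. The unadjusted 95% interval of the difference between strains ran from -4.15 to -0.13 for St14, -2.27 to -0.6 for Tmprss2 and -0.82 to -0.04 for Cdhr5. Cdh1 (E-cadherin, 1.19 ± 0.27; adjusted p = 0.0628 without Fra1 control 2) rose over both strains, but its mutants overlapped their controls in Fra2.

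Of 24 cytokine, chemokine and receptor genes, 4 rose and none fell (median 0.33), all 4 alike, and 3 of them are receptors of the TNF family. Tnfrsf1a, the main TNF receptor, stood at 88.4, 64.5 and 86.3 CPM in Fra1 controls, 172, 174 and 194 in Fra1 mutants, 75.7, 81.0 and 87.1 in Fra2 controls and 134, 168 and 152 in Fra2 mutants (1.04 ± 0.10, adjusted p = 0.000121). Tnfrsf12a, the TWEAK receptor, rose by 1.85 ± 0.36, with 20.3 to 65.7 CPM in Fra1 mutants and 9.64 to 13.6 in Fra2 mutants over 3.94 to 8.72 in the controls. Its rise was 2.58 ± 0.40 in Fra1 and 1.08 ± 0.39 in Fra2, where it did not pass alone (adjusted p = 0.295). The unadjusted 95% interval of the difference ran from -2.7 to -0.3. Tnfrsf10b, the TRAIL receptor, rose by 1.98 ± 0.36 and the chemokine Cxcl14 by 1.31 ± 0.25. Of 22 fetal liver, progenitor and tumour genes, 3 rose (Krt23, Ly6d and Tnfrsf12a) and 1 fell (Gpc1). Krt23, a keratin, rose alike in both strains (2.64 ± 0.53 and 2.78 ± 0.52), whereas Ly6d (3.82 ± 0.87; adjusted p = 0.0788 without Fra1 control 1) was at 0.350 CPM in Fra2 mutant 1, below all Fra2 controls, the lowest of which held 0.552.

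Of 28 genes of fatty acid oxidation and PPAR-alpha, 5 fell, all alike, and none rose (median -0.21; -0.41 in Fra1 and -0.02 in Fra2). Beside Cyp4a14, Abcd2 and Fabp1 these included Acaa1b, a peroxisomal thiolase (-1.67 ± 0.39; adjusted p = 0.0755 without Fra2 control 2). Without Fra1 control 1, or without Fra1 control 2, 2 members of the list passed. Of 21 PPAR-gamma and lipid droplet genes 2 rose and 2 fell (median -0.09). Cidec stood at 0.393 to 1.11 CPM in Fra1 controls, 7.49, 7.58 and 12.5 in Fra1 mutants, 0.939, 5.64 and 1.35 in Fra2 controls and 10.0, 159 and 50.1 in Fra2 mutants (4.44 ± 0.71). The droplet coat gene Plin3 rose by 0.97 ± 0.20 but was not alike, since its mutants and controls overlapped in Fra2. Pparg, a receptor known to drive Cidec in fatty liver, fell from 9.81 CPM ± 2.29 to 4.39 ± 1.34 (-1.14 ± 0.21, SD, n = 6 and 6), with all mutants below all controls, and the droplet enzyme gene Hsd17b13 changed by -0.75 ± 0.11. No member of 20 lipogenesis genes passed by edgeR over both strains (8 at an unadjusted p under 0.05, 2 lower by DESeq2, 0 by limma-voom), with -0.67 ± 0.24 for the fatty acid synthase gene Fasn (adjusted p = 0.15). Of 24 cholesterol synthesis genes 2 fell, Dhcr7 (-0.76 ± 0.12) and Sc5d (-0.34 ± 0.09; adjusted p = 0.117 without Fra1 control 2).

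Transport and plasma protein genes moved in both directions. Of 23 genes of bile acid synthesis and transport, the bile salt pump Abcb11 fell by 0.56 ± 0.10 on the log2 scale (-0.72 ± 0.14 in Fra1 and -0.41 ± 0.14 in Fra2), Slco1a1 changed by -3.0 ± 0.74 (adjusted p = 0.0835 without Fra1 mutant 1), and the phospholipid floppase Abcb4 rose by 1.25 ± 0.29 (adjusted p = 0.0704 without Fra1 control 1). Slco1a1 and Abcb4 were not alike, since their mutants and controls overlapped in Fra2. Slco1a1 stood at 96.8 CPM in Fra2 control 2, below all Fra2 mutants (140 to 158). Of 27 hepatocyte regulators and secreted proteins, Apob rose by 0.80 ± 0.16, from 3640 CPM ± 756 to 6350 ± 1250, and Apoa1 fell from 10300 ± 3340 to 5160 ± 2150 (-1.02 ± 0.23, SD, n = 6 and 6; adjusted p = 0.0540 without Fra1 control 1). The 2 main structural apolipoproteins thus moved in opposite directions, Apob in all 6 mutants against all 6 controls, Apoa1 with an overlap. Hnf4a (0.33 ± 0.12, adjusted p = 0.126) and Alb (-0.73 ± 0.22, adjusted p = 0.0718; 0.00786 by DESeq2) did not pass by edgeR. Of 26 acute phase genes none passed by edgeR over both strains (8 at an unadjusted p under 0.05, 1 higher and 3 lower by DESeq2, 1 lower by limma-voom). Their median was -0.53 in Fra1 and 0.27 in Fra2, and the haptoglobin gene Hp stood at -1.67 in Fra1 and -0.26 in Fra2 (adjusted p = 0.0782 over both strains, 0.00806 by DESeq2).

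Antioxidant genes that passed over both strains rose and fell in equal number, but not all were alike. Of 19 NRF2 and pentose phosphate genes, Srxn1 and Pgd (1.15 ± 0.16) rose, both alike. Pir (-1.32 ± 0.26) and G6pdx (-0.97 ± 0.23, adjusted p = 0.0754 without Fra1 control 1) fell, neither alike, and the list's median was 0.09. For Pir the change was -0.64 ± 0.23 in Fra1 (adjusted p = 0.171) and -2.03 ± 0.24 in Fra2. Nqo1, a classical NRF2 target, gave 0.32 ± 0.33 (adjusted p = 0.653). Of 20 glutathione transferases, Gsta2 rose by 2.05 ± 0.27 (2.84 ± 0.19 in Fra1, 1.29 ± 0.18 in Fra2) and Gstm7 by 0.44 ± 0.10 (adjusted p = 0.0742 without Fra1 control 2). Gstm4 (-0.67 ± 0.17, adjusted p = 0.0866 without Fra1 control 1) and Gstt3 (-1.11 ± 0.28, adjusted p = 0.0939 without Fra2 control 2) fell, and Gstt3 was not alike. Of 26 AP-1 and partner genes 1 rose, Mafk, a small Maf protein that pairs with bZIP factors (1.5 ± 0.16, with 27.8 to 53.4 CPM in mutants and 12 to 19.4 in controls). Of 24 genes reported as AP-1 targets 3 rose and none fell (median 0.50; 0.74 in Fra1 and 0.28 in Fra2). Plec, the linker plectin, stood at 64.3, 69.0 and 68.7 CPM in Fra1 controls, 119, 139 and 131 in Fra1 mutants, 81.4, 74.2 and 79.4 in Fra2 controls and 133, 154 and 124 in Fra2 mutants (0.88 ± 0.07, adjusted p = 4.42e-05). Lmna, which encodes the nuclear lamins A and C, rose by 1.06 ± 0.14, also alike, and the laminin receptor gene Itga6 by 1.64 ± 0.42 (adjusted p = 0.101 without Fra1 control 1).

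**Figure D5:**
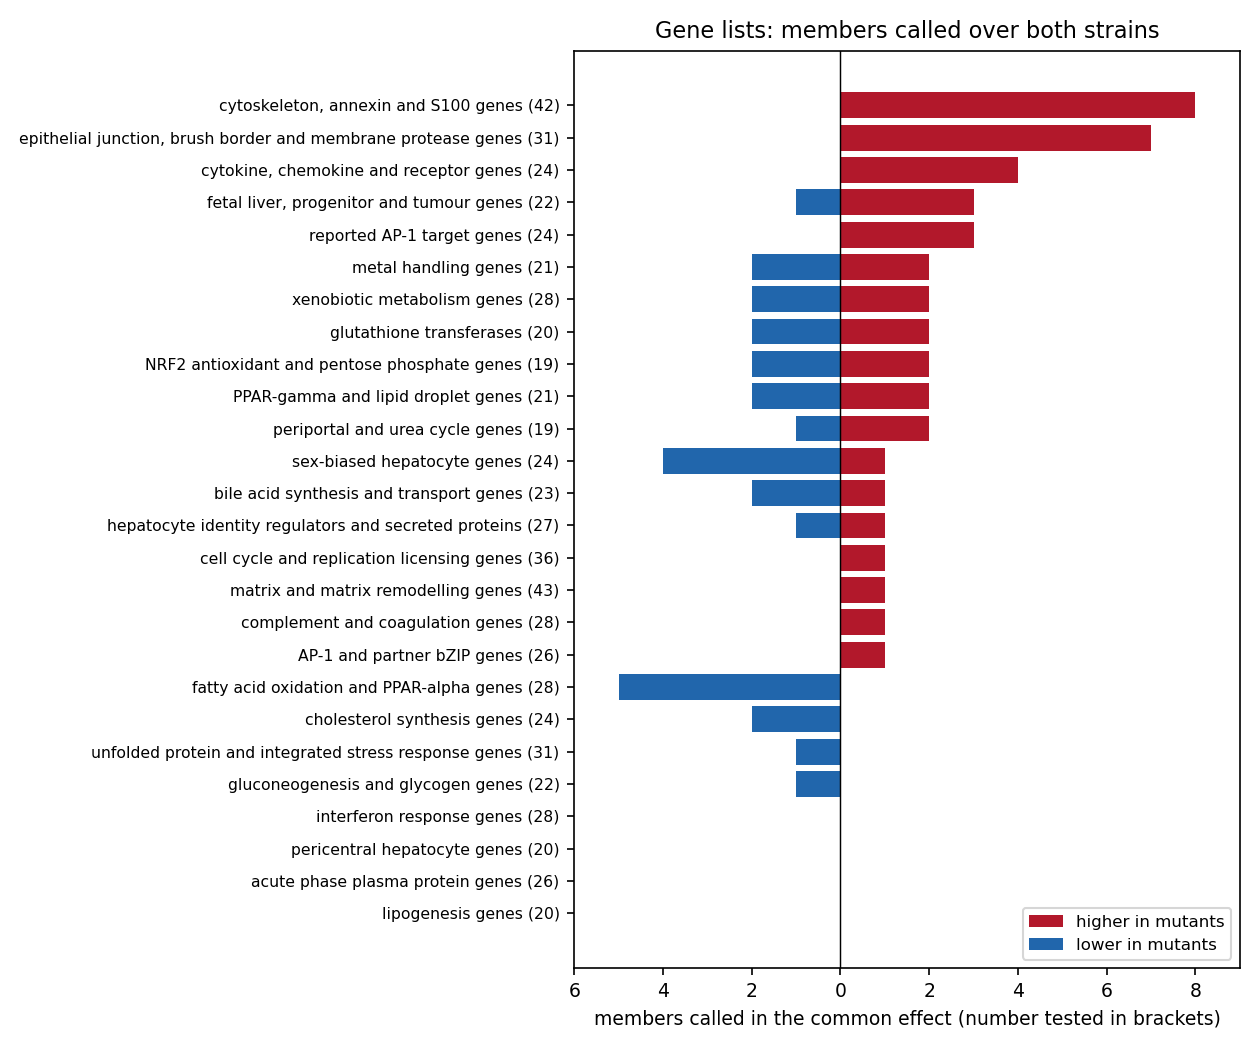
Number of members of each of 26 gene lists that passed over both strains, higher (red, to the right) or lower in mutants (blue, to the left), with the number tested in brackets. The cytoskeleton list (8 of 42) and the junction and protease list (7 of 31) hold the most rises, and the fatty acid oxidation list (5 of 28) the most falls.

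The remaining lists held few calls. Of 21 metal handling genes, Meltf and Hfe (0.56 ± 0.13, adjusted p = 0.0670 without Fra1 control 1), which controls iron sensing, rose. The zinc transporter Slc39a4 (-1.46 ± 0.23) and Hamp2, a gene of the hepcidin family (-3.83 ± 0.79, adjusted p = 0.0511 without Fra2 control 2), fell. Hamp2 was not alike, with 5.58 CPM in Fra2 control 1 below the 23.0 of Fra2 mutant 1 (adjusted p = 0.247 in Fra2). Of 28 xenobiotic metabolism genes, Cyp2c55 (1.47 ± 0.30) and Ces1g (0.81 ± 0.21, not alike, adjusted p = 0.113 without Fra1 control 1) rose and Ces1e and Cyp2c38 fell. Of 24 sex-biased hepatocyte genes 1 rose (C6) and 4 fell, among them Hsd17b6, Abcd2 and Slco1a1, the last not alike (median -0.73). C6 was also on the list of 13 Kupffer cell markers and the only one of them that passed. The median of that list was 0.11 over both strains, -0.03 in Fra1 and 0.26 in Fra2. Of 19 periportal and urea cycle genes, Slc25a15, the ornithine carrier (0.67 ± 0.17, adjusted p = 0.0997 without Fra1 mutant 3), and Cdh1 rose and Hsd17b13 fell. Only Hsd17b13 among them was alike. Of 43 matrix genes Mmp15 rose, though not alike (0.68 ± 0.16, adjusted p = 0.0693 without Fra1 control 2), and the list's median was 0.71 in Fra1 against 0.04 in Fra2. Atf5, a stress-induced transcription factor, was the only one of 31 stress response genes to pass (-0.44 ± 0.11; adjusted p = 0.0853 without Fra1 control 2), and complement C6 the only one of 28 complement and coagulation genes (0.62 ± 0.14; adjusted p = 0.0620 without Fra1 mutant 3). Adcy1 was the only one of 22 gluconeogenesis and glycogen genes to pass. None of 28 interferon response genes (3 at an unadjusted p under 0.05) and none of 20 pericentral genes (2 at an unadjusted p under 0.05) passed by edgeR over both strains, and none by DESeq2 or limma-voom.

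Of the 13 tested markers of recruited and lipid-associated macrophages, 12 had a positive effect over both strains (median 0.66; 1.05 in Fra1 and 0.29 in Fra2), and 1 passed the test. All 10 tested markers of T and NK cells were positive over both strains (median 0.28; 0.57 in Fra1 and 0.02 in Fra2), 5 of them in Fra2, against 7077 of all 14076 genes, and none passed by edgeR (0 at an unadjusted p under 0.05). Mpeg1, the macrophage pore protein, stood at 79.8, 76.3 and 106 CPM in Fra1 controls, 154, 278 and 153 in Fra1 mutants, 95.2, 61.6 and 85.9 in Fra2 controls and 256, 218 and 218 in Fra2 mutants. It rose by 1.34 ± 0.18, alike in both strains. Lum, a proteoglycan of fibroblasts, rose by 1.03 ± 0.18, from 6.14 to 7.43 CPM up to 13.2 to 24.1 in Fra1 and from 5.47 to 7.57 up to 9.97 to 11.7 in Fra2. It was the only one of 15 stellate cell and fibroblast markers that passed, and the list's median was 0.46 in Fra1 and -0.23 in Fra2, 4 of the 15 were positive in Fra2, and 3 had the same sign in both strains. The part of these cells in the shared change was not tested.

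Some of the alike genes were neighbours. Counting genes of the same direction within 100 kb of each other, 64 of the 404 higher genes fell into 30 groups and 24 of the 167 lower genes into 11. Groups of 3 were Cacna2d4, Lrtm2 and Wnt5b on chromosome 6, Uap1l1, Entpd2 and Npdc1 on chromosome 2, and Xdh, Srd5a2 and Gm31084 and the H2-T22, H2-T-ps and H2-T10 genes, both on chromosome 17, among the higher genes, and the retinol dehydrogenase genes Rdh16, Rdh16f2 and Rdh7 on chromosome 10 and Gpc1, Rnpepl1 and Capn10 on chromosome 1 among the lower ones. Near-identical relatives such as the Rdh and H2-T genes may share reads, as may Entpd2 and Npdc1, which overlap on the same strand. These counts of neighbours were not compared with those of other genes.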

How the data were processed

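The members and gene lists were chosen with earlier results of these data known. Liver RNA was enriched for polyadenylated transcripts and made into dUTP-stranded libraries, per the labels' protocols. The authors deposited raw counts per gene for 12 libraries, not normalized, in 1 table of 55421 genes. The submitters' processing notes name RSEM, bedtools 2.27.1, DESeq2 1.22.2, STAR 2.6.1a and the build GRCm38 (mm10). The tool behind the counts, its annotation and its strand setting: not given in the sources used here.

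Groups came from the titles. No pair of libraries agreed within sampling noise, and each mouse counts as a replicate. Genes passing filterByExpr by the 4 groups (14076) were scaled by TMM and fitted in edgeR 4.0.16 (R 4.3.3) by the robust quasi-likelihood test: strain plus genotype for the common effect, 4 group means for the strain effects and their difference. Adjusted p is Benjamini-Hochberg over all genes tested, two-sided, called under 0.05. SE is the log2 fold change divided by the root of the test statistic. Beside Fosl1 and Fosl2, the text names the 12 largest alike rises and falls among protein-coding genes with at least 1 CPM, 6 per direction that passed in neither strain, the genes whose effects differed, and up to 4 called members per list. Genes named for their smallest p were added after the data were seen, as were Anxa2, Anxa5, Tagln2, Tpm4, Perp, Lum, Mpeg1 and, without a call, Hp, Fasn, Nqo1, Hnf4a and Alb. Some called list members are not reported here. Positions are from GENCODE M21 (14069 of 14076 identifiers matched), promoters from RefSeq (GRCm38.p6).

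Alternatives were DESeq2 1.42.0, RLE factors, no scaling, no filter or one of 1 CPM in at least 3 libraries, limma-voom (limma 3.58.1), no strain term, testing for changes beyond 1.5-fold, the average of strain effects, the replicate number as a block, other definitions of alike, each library left out and, chosen after seeing the data, Fra2 controls 1 and 2 left out. The scripts were tested on simulated data. Counting intervals cover counting error only, since PCR copies cannot be told from separate molecules.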

Additional observations from a re-analysis of the deposited data

Results flagged for a closer look

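The difference between the strain effects passed the test, by edgeR, for 5 genes. The log2 effect of Fra2 minus that of Fra1 was -4.40 for Smpdl3b, -1.98 for Gas7, -1.29 for Dop1b, -1.23 for Tpm1 and 2.35 for Cyp4a12b.

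Single libraries stood apart from the other 5 of the 6 mutants, or of the 6 controls, in 23 of the 206 groups examined for the named genes. Chance alone flags about 1 group in 20 where values are normal and come from a single population. Here the 6 libraries come from both strains and some values are near 0, so that rate need not hold. Among the mutants, Fra1 mutant 2 held 30.6 CPM of Cdhr2 (next 11.9), 42.9 of Inava (next 8.48), 42.7 of Lrtm2 (next 25.3), 125 of Serpina6 (next 46.0), 9390 of Apoa1 (next 5060), 11.5 of G6pdx (next 5.24), 143 of Gstm7 (next 110) and, as the lowest, 24.0 of 6430548M08Rik (next 28.3). Fra2 mutant 2 held 159 CPM of Cidec (next 50.1) and 8750 of Apob (next 6670). Fra1 mutant 1 held 69.3 CPM of Cyp2c55 (next 44.5), Fra1 mutant 3 held 355 of S100a10 (next 282) and Fra2 mutant 1 held 23.0 of Hamp2 (next 6.79).

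Among the controls, Fra2 control 2 held 48.1 CPM of Fosl2 (next 16.0), 5.64 of Cidec (next 1.35), 1.51 of Lrtm2 (next 0.331), 2.90 of Adcy1 (next 1.46) and 0.167 of Tmeff2 (next 0.0653). Fra2 control 1 held 0.607 CPM of Fosl1 (next 0.0558), 256 of Ces1b (next 76.9) and 47.9 of Ugt1a9 (next 17). Fra1 control 3 held 11 CPM of Spats2 (next 8.03) and Fra1 control 1 held 0.457 of Ypel4 (next 0.112).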

How the results depend on the processing

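The genes higher and lower over both strains, 551 and 241, numbered 832 and 515 by DESeq2, 878 and 154 with no scaling, and 151 and 30 against a 1.5-fold change. All 151 and 30 were among the 551 and 241, as were 549 and 241 of those by DESeq2. No scaling moved the median of all genes by 0.10 on the log2 scale and the share of higher calls from 69.6% to 85.1%. With single libraries left out, the counts ran from 382 to 635 higher and from 135 to 311 lower. The alike genes, 404 and 167, numbered 144 and 26 against a 1.5-fold change, 99 and 15 when a gene had to pass in each strain, and the lower ones 103 with no scaling. With single libraries left out they ran from 346 to 532 and from 112 to 256, and 312 and 99 of the alike genes passed over both strains in all 12 such fits.

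With the replicate number as a block, 420 genes were higher and 140 lower over both strains, 102 of them alike lower. Same-numbered mutants and controls deviated with correlations from -0.12 to 0.06. These values give no sign that the numbers pair the mice, but they cannot exclude a pairing that leaves little trace in expression.

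The 5 genes whose effects differed numbered 69 by DESeq2, 9 with no filter, 0 against a 1.5-fold change and 2 without Fra2 controls 1 and 2, an alternative chosen after seeing the data. With single libraries left out they ran from 0 to 13. The sign of a named gene turned once, for Cyp4a12b over both strains (-0.25, adjusted p = 0.791, without Fra2 controls 1 and 2). The cause was not tested. Genes with few counts, such as Meltf and Cacna2d4, are limited by depth.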
